A study of Mus musculus with 6 samples.

Results

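The genes described here are the unfolded protein response and the targets of its transcription factor ATF4, measured in libraries labelled as mammary tumor cells from MMTV-PyVT mice. Members were the rows of the count table whose gene name stood in a list of 37 names, and all 37 were found among 10995 listed genes. They fall into 6 roles: 3 sensors in the membrane of the endoplasmic reticulum (ER), 5 transcription regulators, 13 chaperones and folding enzymes, 4 genes of ER-associated degradation, 6 enzymes of amino acid and one-carbon synthesis, and 6 feedback and signalling outputs. Messenger RNA was sequenced in 3 libraries labelled wild type and 3 labelled knockout for Nr4a1, which encodes an orphan nuclear receptor. All mice were FVB/NJ and carried the PyVT transgene, in which the mouse mammary tumor virus promoter drives the polyoma middle T oncogene in mammary epithelium. Both groups are therefore labelled as tumor cells, and no separate untransformed tissue was compared. Markers of fibroblasts, pericytes and macrophages were also counted in every library, as given below. The knockout group is Nr4a1-/- and was matched to the wild type group in age, but the sources used here give neither the ages nor the deleted part of the allele. Nothing states that each library is a separate animal. The p-values are therefore set against the variation among libraries, which could be technical only.

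The unfolded protein response begins when unfolded proteins gather in the ER and activate the sensors IRE1 (Ern1), PERK (Eif2ak3) and ATF6. IRE1 splices Xbp1 mRNA, ATF6 is cut to release a transcription factor, and both raise genes for chaperones and for the disposal of misfolded proteins. PERK phosphorylates eIF2, which lowers protein synthesis in general while favouring translation of ATF4, and ATF4 then raises genes for amino acid synthesis and transport, for redox balance and for the feedback that ends the response. Other kinases of eIF2 reach ATF4 without ER stress, for example when amino acids are short. Counts per gene show neither the splicing of Xbp1 nor the translation of ATF4.

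The promoters of the members carried the letters of 3 of 4 known response elements at a higher share than those of all genes. They are shown here because most matches of one element lay in ER folding genes and most of another lay outside them. Only 13 of the 37 members have the folding role, so most members lie outside it as well. Promoters, taken as 250 bases before to 50 bases after the start of transcription, came from RefSeq (GRCm38.p6), where 34 of the 37 members had an entry. Both strands were searched. The ER stress response element (ERSE) was searched as CCAAT, 9 bases of any kind and CCACG, and it stood in 8 of 34 member genes (23.5%) against 0.137% of 27025 genes. The variant ERSE-II, searched as ATTGG, 1 base and CCACG, stood in the promoter of Herpud1 and in 0.044% of genes. The element bound by XBP1, TGACGTGG, stood in 0 of 34 members and in 0.714% of genes. The amino acid response element (CARE), TGATGNAA, stood in 6 members (17.6%), namely Nupr1, Herpud1, Asns, Trib3, Chac1 and Vldlr, and in 4.51% of genes. The 16 matches lay in 14 genes and none overlapped another. A match describes letters only and is no evidence of binding, and the members belong to these pathways by their selection. The ERSE matches follow in the direction of the motif, with its fixed letters in capitals, and Hsp90b1 carries a pair of them.
Hspa5: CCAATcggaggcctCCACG
Hsp90b1: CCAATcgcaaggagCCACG
Hsp90b1 (other match): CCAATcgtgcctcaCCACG
Calr: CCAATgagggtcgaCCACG
Canx: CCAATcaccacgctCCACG
Pdia6: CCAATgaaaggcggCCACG
Dnajc3: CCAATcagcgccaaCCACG
Creld2: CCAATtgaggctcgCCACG
Syvn1: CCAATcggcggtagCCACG
Herpud1 (ERSE-II): ATTGGgCCACG

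Of the ERSE matches, 7 of the 8 genes encode ER chaperones or folding enzymes, and Syvn1 encodes the ubiquitin ligase of ER-associated degradation. Of the 6 CARE matches, 5 lie in genes with roles other than ER folding or degradation, and the sixth is in Herpud1. Those roles hold 13 and 4 of the 37 members, so most members lie outside them too. Asns was the only synthesis enzyme with a CARE. Whole promoters of 4 members that hold a match are printed next, 5′ to 3′ on the strand of the gene. The whole of each match is in capitals, spacers included. Dnajb9 and Sdf2l1, whose groups did not overlap below, held 0 matches and are not printed. Chac1 is printed for its CARE, although its groups overlapped. A match on the opposite strand appears as its reverse complement. Herpud1 lies at chr8:94386179-94386478 on the plus strand and holds ERSE-II and a CARE on the opposite strand, Hspa5 lies at chr2:34771840-34772139 on the plus strand, Dnajc3 lies at chr14:118937682-118937981 on the plus strand, and Chac1 lies at chr2:119350992-119351291 on the plus strand with a CARE on the opposite strand.
Herpud1: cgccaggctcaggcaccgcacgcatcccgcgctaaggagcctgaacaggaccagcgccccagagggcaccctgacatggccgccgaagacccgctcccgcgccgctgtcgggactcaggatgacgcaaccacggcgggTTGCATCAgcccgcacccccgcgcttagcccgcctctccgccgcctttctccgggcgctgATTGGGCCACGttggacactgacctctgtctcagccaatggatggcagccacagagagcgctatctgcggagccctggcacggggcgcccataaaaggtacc
Hspa5: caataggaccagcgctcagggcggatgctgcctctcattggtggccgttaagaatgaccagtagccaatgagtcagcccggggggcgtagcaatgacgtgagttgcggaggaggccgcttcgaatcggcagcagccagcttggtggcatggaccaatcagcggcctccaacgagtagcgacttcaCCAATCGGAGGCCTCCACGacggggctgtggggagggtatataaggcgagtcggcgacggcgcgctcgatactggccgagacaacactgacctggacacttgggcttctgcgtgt
Dnajc3: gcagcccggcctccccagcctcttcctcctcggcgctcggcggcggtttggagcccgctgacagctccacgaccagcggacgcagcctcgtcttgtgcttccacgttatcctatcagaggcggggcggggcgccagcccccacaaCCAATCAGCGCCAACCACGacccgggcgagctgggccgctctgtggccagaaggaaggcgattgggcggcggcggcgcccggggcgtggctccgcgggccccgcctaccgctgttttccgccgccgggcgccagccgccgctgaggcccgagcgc
Chac1: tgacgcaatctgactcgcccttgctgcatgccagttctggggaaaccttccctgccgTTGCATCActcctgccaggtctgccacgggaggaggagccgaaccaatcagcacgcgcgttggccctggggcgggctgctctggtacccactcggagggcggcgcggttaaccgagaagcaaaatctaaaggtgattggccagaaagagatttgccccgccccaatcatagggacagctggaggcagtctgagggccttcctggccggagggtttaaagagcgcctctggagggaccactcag

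The libraries held 19569173 to 24188875 counts each, of which the members took 0.627% to 0.793%. Levels are given as CPM, counts divided by a library size that was scaled by the trimmed mean of M-values (TMM). Wild type replicate 1 stood apart on the first principal component, which held 60.1% of the log2 CPM variance, with a score of -51.3 against -2.22 to 28.8 for the others. Nr4a1 itself stood at 34.5, 18.6 and 16.8 CPM in the libraries labelled wild type and at 25.1, 35.5 and 37.6 CPM in those labelled knockout, so its transcript was not lower with the knockout label. The fit gave a log2 fold change of 0.49 (SE 0.32) with an edgeR adjusted p of 0.59. It was 0.88 without wild type replicate 1 and 0.31 with wild type replicate 3 left out. A count per gene cannot tell whether reads come from the deleted part, so every direction below is between libraries as labelled. Names such as knockout replicate 2 likewise follow the labels, and values by library are given in the order of replicates 1, 2 and 3. The luminal epithelial markers fixed for the label of mammary tumor cells were listed for 9 of 9 genes, with a summed level of 5183 to 5567 CPM with the wild type label and 3403 to 4437 CPM with the knockout label. Of the stromal markers, 6 of 8 for fibroblasts, 8 of 8 for pericytes and smooth muscle and 9 of 10 for macrophages were listed. Marker lists with few genes here were those of endothelium (1 of 6), plasma and B cells (1 of 12), adipocytes (1 of 6), milk secretion (2 of 7) and T cells (0 of 6), and their other genes were not analysed.

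ER chaperones were among the most abundant members per length of transcript. Calr, which encodes the calcium-binding chaperone calreticulin, stood highest at 323 ± 48.1 and 345 ± 27.6 CPM per kilobase of exon (SD, n = 3 each; wild type label, then knockout label). Ddit4, which encodes the mTORC1 inhibitor REDD1, followed at 294 ± 109 and 333 ± 11.6 CPM per kilobase (SD, n = 3 each). Pdia3, a disulfide isomerase that works with calreticulin and calnexin, stood at 224 ± 29.8 and 250.4 ± 12.3 CPM per kilobase (SD, n = 3 each), and Hspa5, the chaperone BiP, at 180 ± 9.03 and 200.4 ± 17.8. The SDs of the neighbours Calr and Ddit4 overlapped, as did those of Ddit4 and Pdia3 with the wild type label. At the low end, Vldlr stood at 3.07 and 3.97 CPM per kilobase and Chac1 at 6.49 and 4.61. Atf4 stood at 99.6 and 95.7 CPM per kilobase and Ddit3, which encodes the regulator CHOP, at 16.3 and 16.3.

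**Figure D1:**
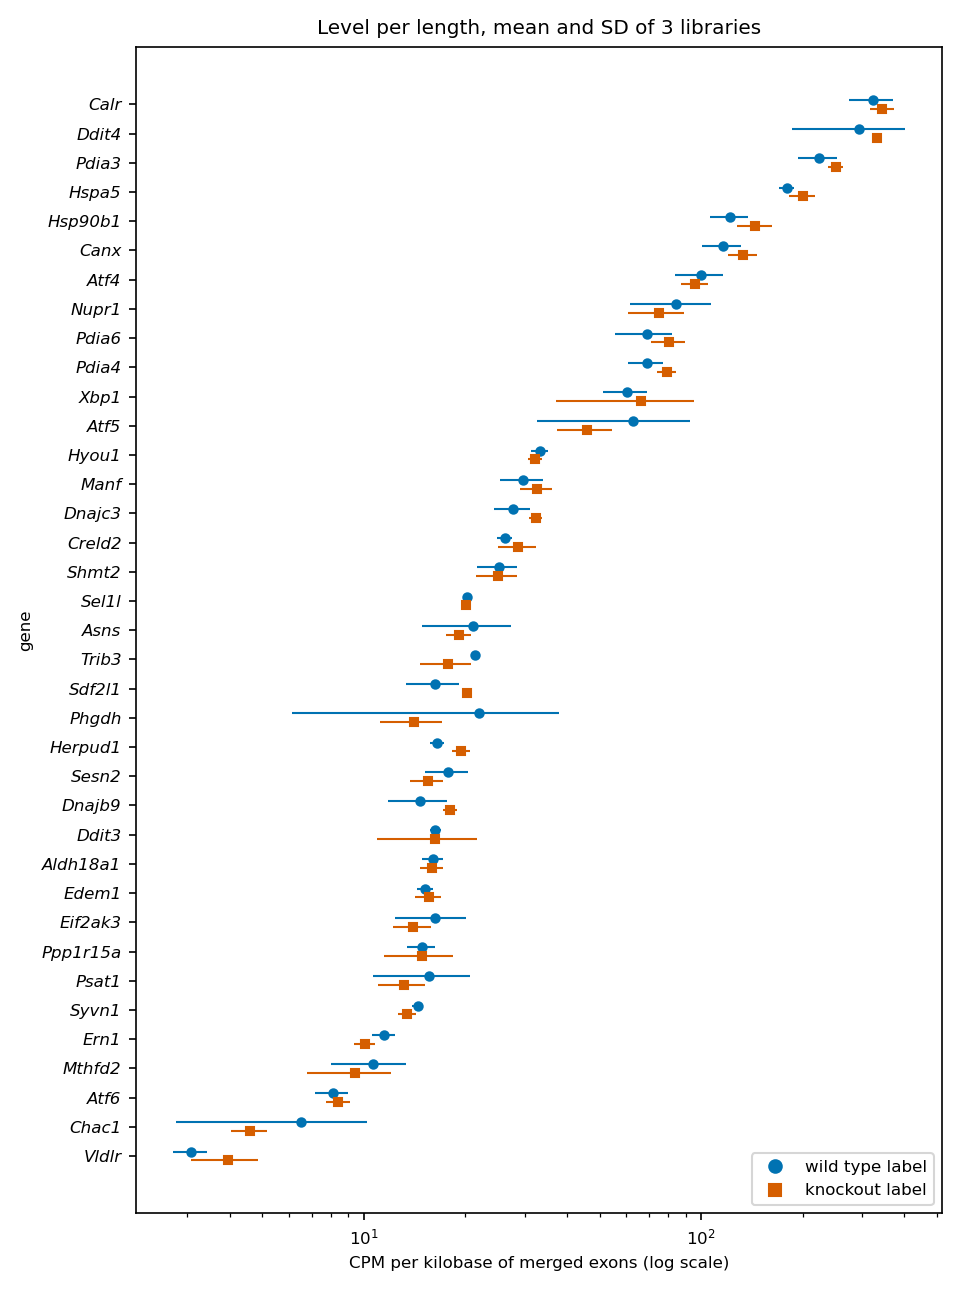
Mean level of each member in CPM per kilobase of merged exons on a log10 axis, for the libraries labelled wild type and knockout, with bars for the SD of 3 libraries. Calr, Ddit4 and Pdia3 stand highest and Vldlr lowest.

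The comparison asked whether the members' transcript levels differ between the labels. In edgeR's quasi-likelihood test, with p adjusted over all genes by Benjamini-Hochberg, 0 of 37 members passed at 0.05, as did 0 of 10995 genes (0%). The smallest adjusted p among the members was 0.574. An unadjusted p under 0.05 was reached by 1 member, Herpud1 (2.70% of members), against 7.88% of all genes. DESeq2 called 0 members and 0.937% of all genes, with a smallest adjusted p of 0.366 among the members, and limma-voom called 0 members. By direction, 20 members lay above 0 on the log2 scale and 17 below, with a median of 0.01, against 5436 above, 5559 below and a median of 0.00 over all genes. All 3 libraries labelled knockout lay above all 3 labelled wild type for 5 members (13.5%), against 8.39% of all genes, and the reverse held for 0 members, against 9.05%. The 95% interval of the fold change lay within 2-fold in either direction for 34 members, and the exceptions were Atf5, Phgdh and Chac1. The same held for 9245 of all genes (84.1%).

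**Figure D2:**
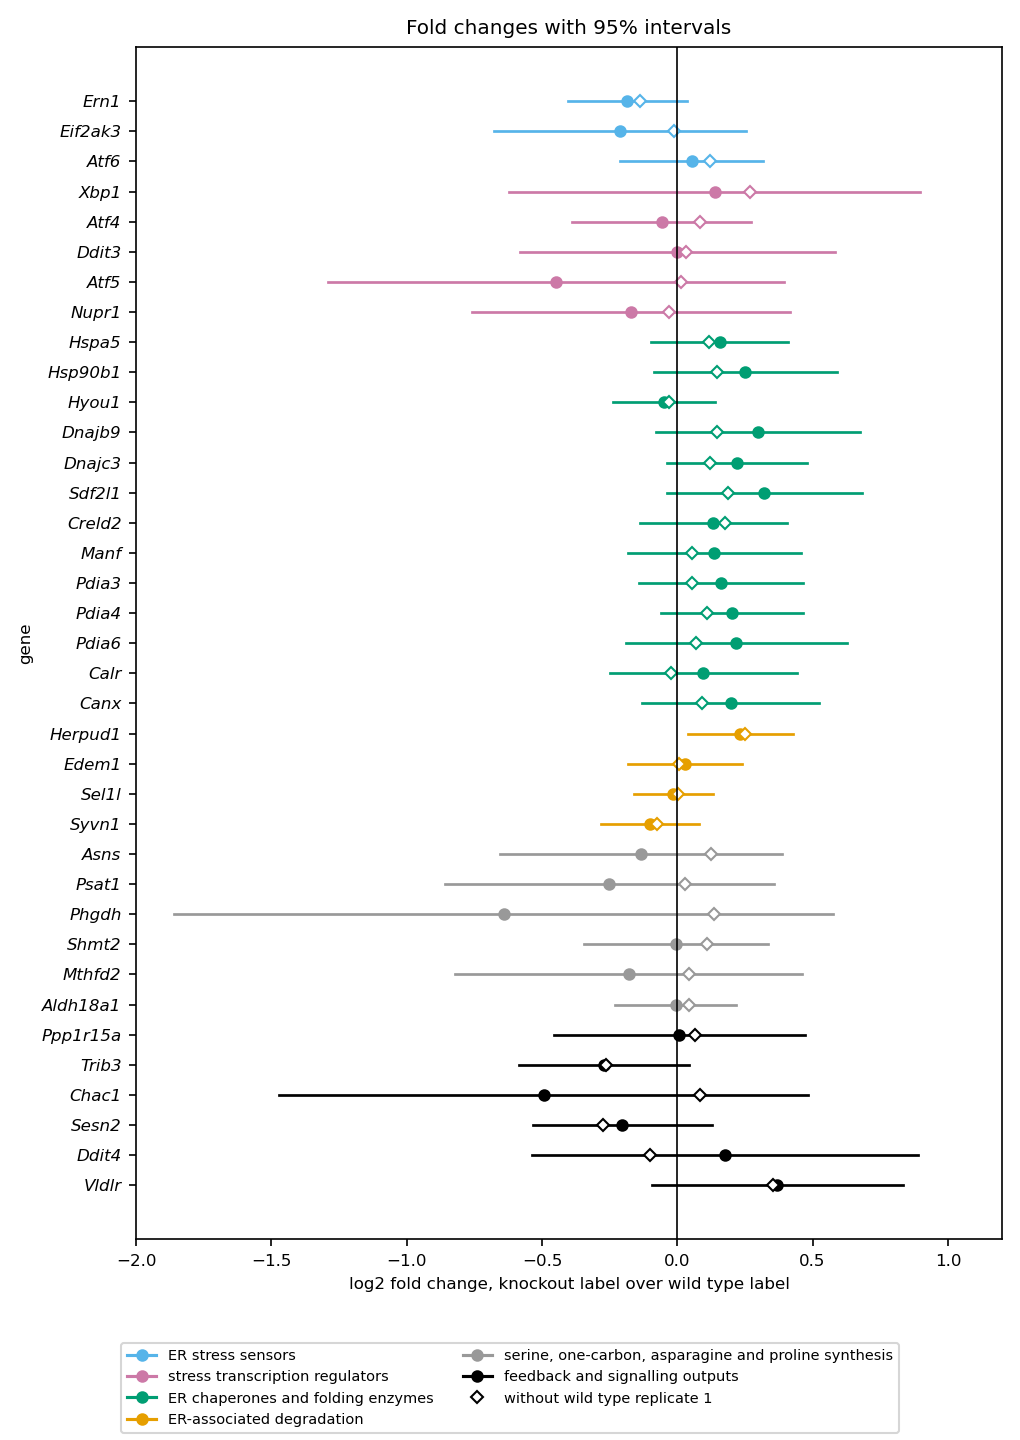
Log2 fold change of each of the 37 members, knockout label over wild type label, as filled points with 95% intervals from the edgeR fit, coloured by role, and open diamonds for the fit without wild type replicate 1. Herpud1 is the member whose interval excludes 0, at 0.04 to 0.43, before adjustment.

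Among the chaperones and folding enzymes, 12 of 13 had a fold change above 0 and 0 passed the test. The median was 0.20 on the log2 scale, with a range from -0.05 for Hyou1, an ER chaperone of the HSP70 family, to 0.32 for Sdf2l1. The 4 members whose groups did not overlap were Hspa5 and 3 of its cofactors, Dnajb9, Dnajc3 and Sdf2l1 (30.8%, against 8.39% of all genes). Leaving out wild type replicate 1 gave a median of 0.11 with 11 of 13 above 0, and leaving out knockout replicate 2 gave 0.12 with 12 of 13 above 0.

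Hspa5, which holds unfolded chains and keeps the sensors inactive, stood at 718, 792 and 771 CPM in the libraries labelled wild type and at 793, 933 and 816 CPM in those labelled knockout. The groups were separated by a margin of under 1 CPM, between wild type replicate 2 and knockout replicate 1, and with scaling by library size alone they overlapped. For Hspa5 the log2 fold change was 0.16 (SE 0.10, adjusted p = 0.60 in edgeR), 0.12 without wild type replicate 1, and 0.08 when knockout replicate 2 was left out.

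Dnajb9, the J-domain protein ERdj4 that delivers clients to BiP, stood at 29.1, 43.4 and 39.9 CPM with the wild type label and at 43.5, 47.7 and 47.0 CPM with the knockout label. Wild type replicate 2 lay just under the knockout range, wild type replicate 3 lay further below it, and wild type replicate 1 was the lowest library. Its log2 fold change of 0.30 (SE 0.16, edgeR adjusted p = 0.57) was 0.14 without that library. Of the 31-base words in its longest transcript, 11.3% also occur in the gene model Gm6568, so part of its count is uncertain.

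Dnajc3 encodes P58IPK, a J-domain partner of BiP and an inhibitor of PERK. It stood at 122, 154 and 151 CPM with the wild type label and at 158, 172 and 168 CPM with the knockout label. For Dnajc3 the log2 fold change was 0.22 (SE 0.11, adjusted p = 0.57 in edgeR), and 0.12 without wild type replicate 1, the lowest library. Sdf2l1, an ER protein that works with BiP and its J-domain partners, stood at 14.4, 20.7 and 18.7 CPM against 21.9, 22.3 and 23.2 CPM. The 3 libraries labelled knockout lay close together for Sdf2l1, and the log2 fold change was 0.32 (SE 0.15, adjusted p = 0.57 in edgeR), or 0.19 without wild type replicate 1.

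For the other abundant chaperones the groups overlapped. Calr stood at 770, 1021 and 996 CPM with the wild type label and at 930, 1083 and 968 CPM with the knockout label. Wild type replicate 1 was low and the other libraries lay together, and the log2 fold change of 0.10 (SE 0.14, edgeR adjusted p = 0.79) was -0.02 without it. Pdia3 stood at 595, 761 and 752 CPM and at 771, 830 and 757 CPM, with knockout replicate 3 below wild type replicate 2. For Pdia3 the log2 fold change was 0.16 (SE 0.12, adjusted p = 0.62 in edgeR), and 0.055 with wild type replicate 1 left out. Of the 31-base words of Hsp90b1, the ER form of HSP90, 12.6% are shared with other genes, most with 1810014B01Rik on the opposite strand. Its exons also overlap Gm15344 (84 bases) and Gm25745 (133 bases) on the same strand. Hsp90b1 had 0.25 (SE 0.14), or 0.15 without wild type replicate 1. The lectin chaperone Canx and the disulfide isomerases Pdia4 and Pdia6 had 0.20, 0.20 and 0.22, which became 0.091, 0.11 and 0.067 without that library. The secreted stress proteins Creld2 and Manf had 0.13 and 0.14, which became 0.025 and 0.051 without knockout replicate 2. The smallest edgeR adjusted p in this role was 0.57.

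**Figure D3:**
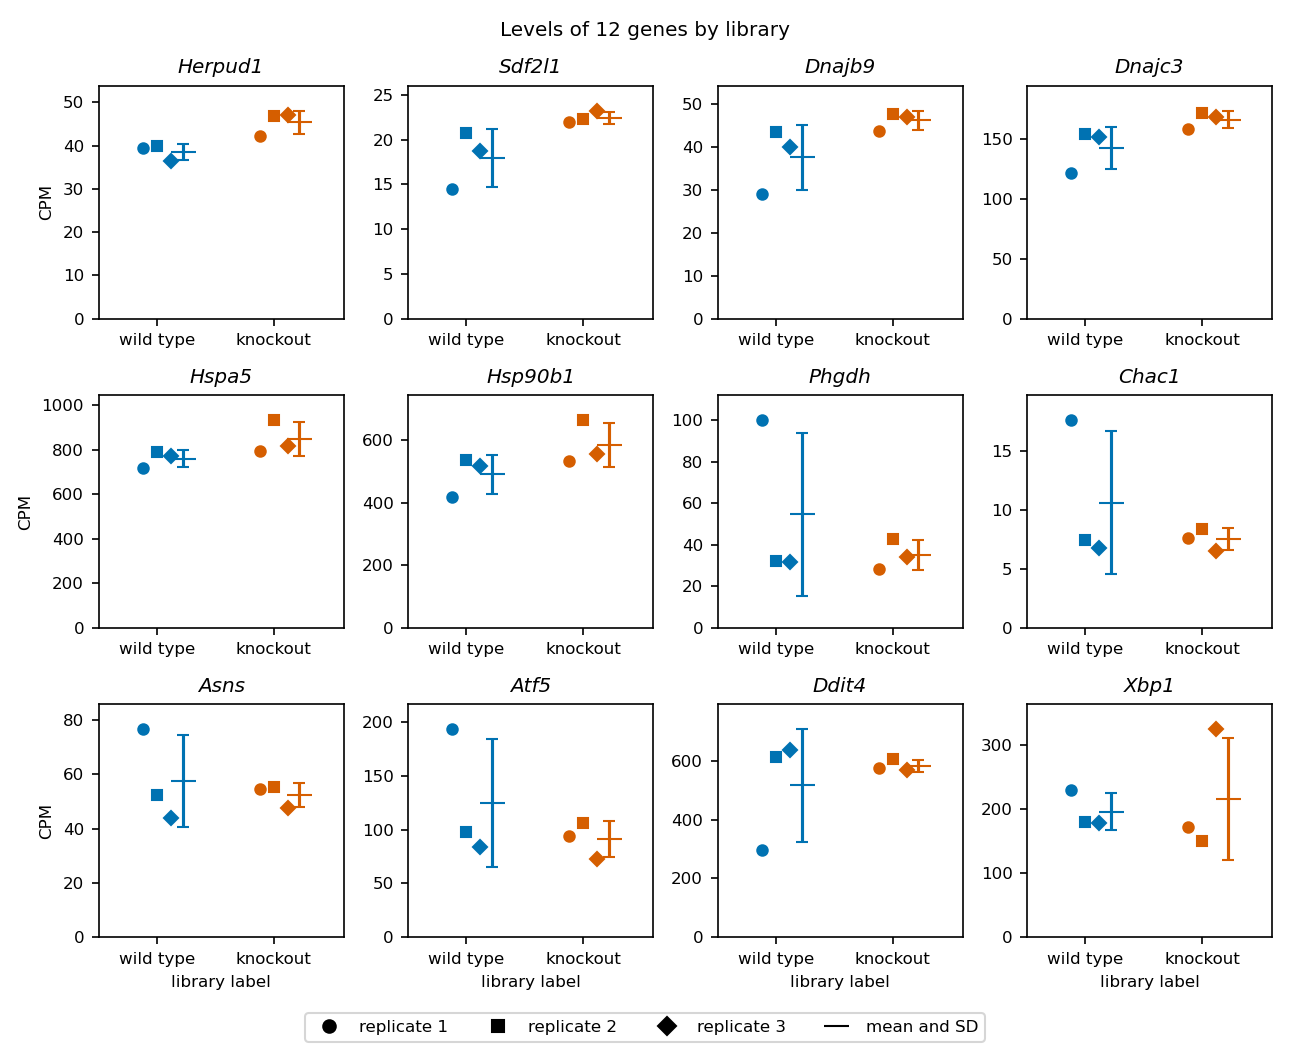
Level in CPM of 12 members in each library, with symbols for replicates 1, 2 and 3 and a bar for the mean and SD of 3 libraries. Groups do not overlap for Herpud1, Sdf2l1, Dnajb9, Dnajc3 and Hspa5, while wild type replicate 1 stands highest for Phgdh, Chac1, Asns and Atf5 and lowest for Ddit4.

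In ER-associated degradation, Herpud1 stood apart from the other 3 genes. Herpud1 encodes HERP, a membrane protein that gathers parts of the degradation complex, and stood at 39.4, 39.8 and 36.5 CPM in the libraries labelled wild type and at 42.3, 46.7 and 47.0 CPM in those labelled knockout. The means were 38.6 ± 1.83 and 45.4 ± 2.66 CPM (SD, n = 3 each). The groups did not overlap, but knockout replicate 1 lay nearer to the highest library labelled wild type than to the other libraries labelled knockout. Its log2 fold change was 0.23 (SE 0.08, 95% interval 0.04 to 0.43), with an unadjusted p of 0.026 from edgeR's quasi-likelihood test, fitted to 3 libraries against 3, that did not pass after adjustment (0.57). Leaving out each library in turn gave 0.20 to 0.28, and 0.25 without wild type replicate 1. Without knockout replicate 2 or 3, and with the replicate number as a block, its unadjusted p was no longer under 0.05. The other genes of this role had log2 fold changes of 0.03 for Edem1, which marks misfolded glycoproteins by trimming their sugars, -0.01 for Sel1l, the adaptor of the ligase, and -0.10 for Syvn1, the ligase HRD1, which was -0.15 without knockout replicate 2. Sel1l varied little, from 168 to 178 CPM over the 6 libraries.

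The sensors gave no difference that passed. Ern1 lay between 85.4 and 99.6 CPM with the wild type label and between 76.3 and 88.1 CPM with the knockout label, with a log2 fold change of -0.18 (SE 0.09, edgeR adjusted p = 0.57). Eif2ak3 had -0.21 (SE 0.19) and stood at 123 CPM in wild type replicate 1 against 74.2 to 95.6 CPM in the other libraries, and without that library its fold change was -0.01, against -0.35 without wild type replicate 3. Of its 31-base words, 8.88% are shared with other genes, among which the gene model Gm43292 on the opposite strand shares the most. Atf6 had 0.05 (SE 0.11).

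Xbp1 was the most variable of the transcription regulators within the knockout label. It stood at 229, 179 and 178 CPM with the wild type label and at 172, 150 and 324 CPM with the knockout label. Knockout replicate 3 was the highest library by far and knockout replicate 2 the lowest. The log2 fold change of 0.14 (SE 0.31, edgeR adjusted p = 0.87) was -0.28 without knockout replicate 3 and 0.34 without knockout replicate 2.

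Atf4, the regulator of the amino acid arm, stood at 279, 212 and 214 CPM with the wild type label and at 211, 217 and 249 CPM with the knockout label. The groups overlapped throughout, with a log2 fold change of -0.06 (SE 0.14, 95% interval -0.39 to 0.27, adjusted p = 0.87 in edgeR), and it was 0.08 when wild type replicate 1 was left out. Ddit3 stood at 29.1, 27.6 and 27.1 CPM and at 27.2, 37.4 and 19.1 CPM. The libraries labelled wild type lay together inside the range of those labelled knockout, and the fold change was 0.00 (SE 0.24, 95% interval -0.58 to 0.58). Ddit3 has 2 entries in the annotation and shares 68 bases of exon with Mars on the opposite strand.

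Atf5, another regulator of stress genes translated when eIF2 is phosphorylated, was given by library after its values were seen. It stood at 193, 97.6 and 83.7 CPM with the wild type label and at 94.6, 106 and 73.2 CPM with the knockout label. Wild type replicate 1 was the high library, and the log2 fold change of -0.45 (SE 0.34) was 0.01 without it. Nupr1, a small chromatin-associated stress protein, had -0.17 (SE 0.24), with -0.03 without wild type replicate 1 and -0.37 without wild type replicate 3.

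All 6 synthesis enzymes had fold changes below 0, and all 6 lay above 0 when wild type replicate 1 was left out. The median was -0.16 on the log2 scale with all libraries and 0.08 without that one. Scaling by library size alone put 2 of the 6, Aldh18a1 and Shmt2, above 0. Asns, which makes asparagine, stood at 76.5, 52.3 and 43.8 CPM with the wild type label and at 54.4, 55.4 and 47.4 CPM with the knockout label. The groups overlapped, with wild type replicate 1 highest and wild type replicate 3 lowest. For Asns the log2 fold change was -0.13 (SE 0.21, adjusted p = 0.81 in edgeR), and 0.13 without wild type replicate 1.

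Phgdh and Psat1, which catalyse steps of serine synthesis, showed the same library highest, and are given by library after their values were seen. Phgdh stood at 100.1, 32.3 and 31.5 CPM with the wild type label and at 28.2, 42.7 and 34.3 CPM with the knockout label. A log2 fold change of -0.64 (SE 0.50) was the lowest among the members and was 0.13 without wild type replicate 1. Of the 31-base words of Phgdh, 74.1% also occur in transcripts of other genes, among which the gene model Gm7901 shares the most, so the level of Phgdh is uncertain. Psat1 stood at 90.0, 48.6 and 60.8 CPM and at 55.2, 65.0 and 47.2 CPM, with a log2 fold change of -0.25 (SE 0.25), or 0.03 without that library. The mitochondrial folate enzymes Mthfd2 and Shmt2 had -0.18 (SE 0.26) and -0.01 (SE 0.14), and Aldh18a1, which begins proline synthesis, had -0.01 (SE 0.09).

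The feedback and signalling outputs were mixed, with 3 of 6 above 0, a median of -0.10 and 0 that passed. Ddit4 stood at 297, 615 and 639 CPM with the wild type label and at 576, 608 and 570 CPM with the knockout label. Wild type replicate 1 was low while the other 5 libraries lay together, and the log2 fold change of 0.18 (SE 0.29, edgeR adjusted p = 0.82) was -0.10 without it. Chac1, an enzyme that degrades glutathione, stood at 17.6, 7.43 and 6.82 CPM and at 7.64, 8.43 and 6.56 CPM, and was given by library after its values were seen. Its log2 fold change of -0.49 (SE 0.40) was 0.08 without wild type replicate 1.

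Trib3 encodes a pseudokinase that restrains ATF4 and had a log2 fold change of -0.27 (SE 0.13, edgeR adjusted p = 0.57). It was -0.42 without knockout replicate 1 and -0.19 without knockout replicate 3. It lay between 44.0 and 46.6 CPM with the wild type label and between 33.6 and 45.2 CPM with the knockout label, where knockout replicate 1 fell inside the wild type range. Sesn2, a sestrin that senses leucine and restrains mTORC1, had -0.20 (SE 0.14), or -0.074 without wild type replicate 3. Ppp1r15a, the phosphatase subunit GADD34 that reverses phosphorylation of eIF2, had 0.01 (SE 0.19). Vldlr, a lipoprotein receptor, had 0.37 (SE 0.19), the highest value among the members, with levels of 27.7 to 34.8 CPM and 30.0 to 47.9 CPM. It was 0.22 without knockout replicate 2 and 0.54 without knockout replicate 1.

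**Figure D4:**
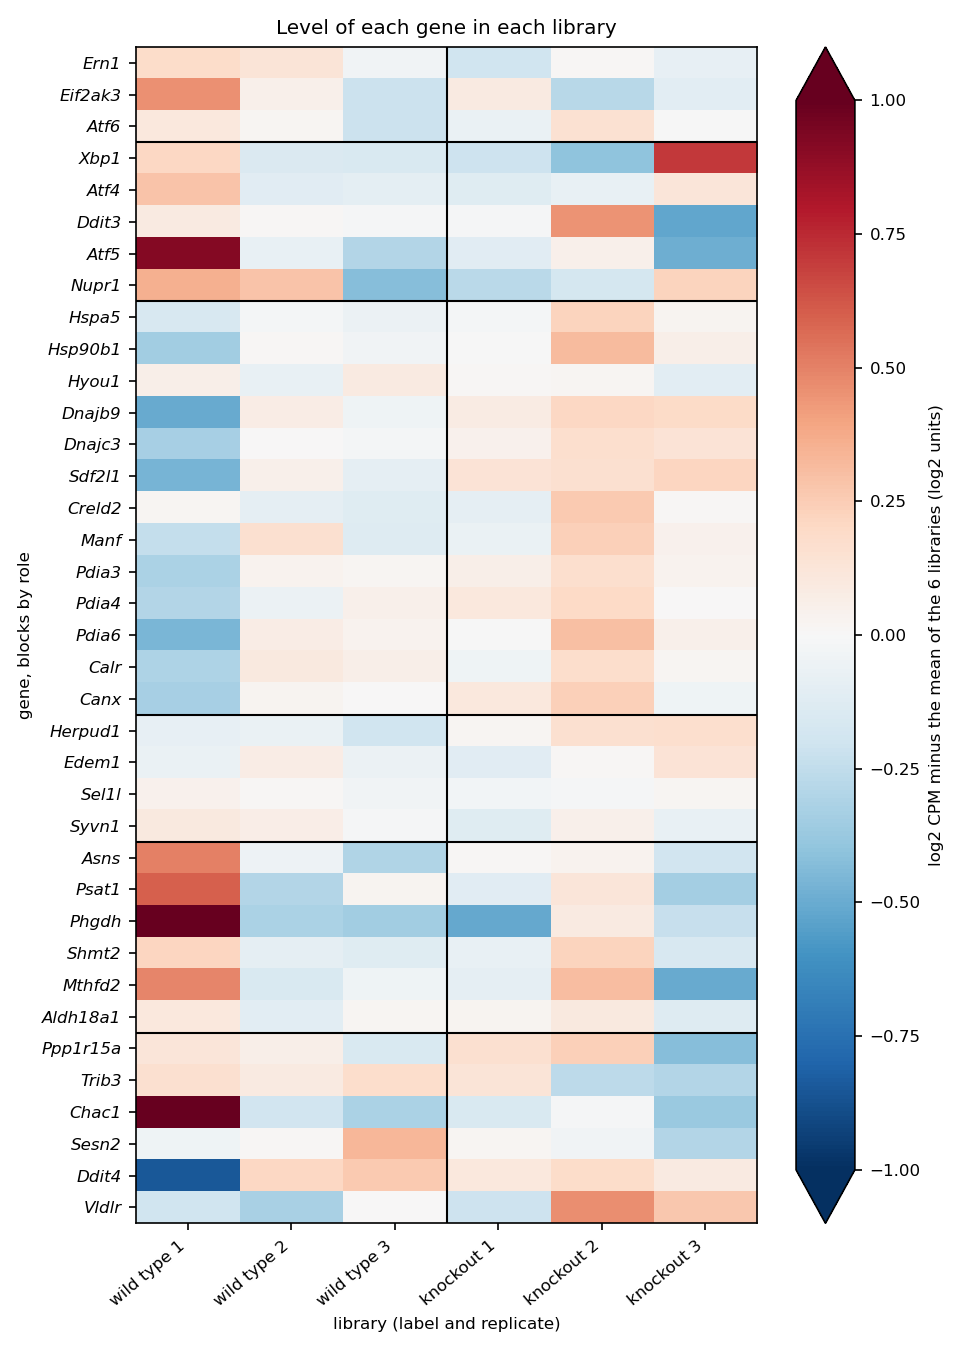
Level of each of the 37 members in each library as log2 CPM minus the mean of the gene over the 6 libraries, with members ordered by role and colours that end at 1 in either direction. Wild type replicate 1 is the lowest library for 11 of 13 chaperones and folding enzymes and the highest for 5 of 6 synthesis enzymes.

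The order of the libraries differed between the roles. For chaperones and folding enzymes, wild type replicate 1 was the lowest of the 6 libraries in 11 of 13 genes (84.6%), against 31.6% of all genes, and knockout replicate 2 the highest in 11 of 13, against 20.6% of all genes. For synthesis enzymes wild type replicate 1 was the highest library in 5 of 6 genes (83.3%), against 32.2% of all genes, and knockout replicate 3 the lowest in 4 of 6, against 15.9% of all genes. These are descriptions without a test, and the genes of a role share their libraries. The mean level of the folding genes, as log2 CPM centred on each gene's mean, was -0.28, 0.02 and -0.02 with the wild type label and 0.02, 0.21 and 0.05 with the knockout label. That of the synthesis enzymes was 0.54, -0.17 and -0.13 against -0.13, 0.15 and -0.26. The difference between the arms was therefore -0.82 in wild type replicate 1, and it lay between 0.06 and 0.31 in the other 5 libraries, where the groups overlapped.

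The fibroblast markers shared their lowest and highest library with the folding genes. Wild type replicate 1 and knockout replicate 2 also stood at the ends of the first principal component over all genes, at -51.3 and 28.8. The shared order is therefore not particular to these lists. The summed level of the fibroblast markers was 2253, 5459 and 3113 CPM with the wild type label and 4836, 8856 and 6027 CPM with the knockout label. The lowest was wild type replicate 1 and the highest knockout replicate 2. Pericyte and smooth muscle markers summed to 336, 1123 and 836 CPM against 1217, 2021 and 917 CPM, with the same lowest and highest library. Macrophage markers summed to 413, 715 and 395 CPM against 1117, 1018 and 728 CPM, lowest in wild type replicate 3 and highest in knockout replicate 1. By the mean of centred log2 CPM, the measure used for the folding genes, they too were lowest in wild type replicate 1 (-0.64) and highest in knockout replicate 2 (0.73). Luminal epithelial markers ran the other way by that measure, highest in wild type replicate 1 (0.27) and lowest in knockout replicate 2 (-0.49). Fibroblasts and other secreting cells also express ER folding genes, and in bulk libraries fewer cells of a type and less RNA per cell cannot be told apart. By label, the median log2 fold change was 0.79 for fibroblast (6 of 6 above 0) and 1.32 for pericyte and smooth muscle markers (7 of 8). It was 0.86 for macrophage (9 of 9) and -0.48 for luminal markers (0 of 9). In edgeR 0 of them passed. DESeq2 called 2 pericyte and smooth muscle markers higher and 1 luminal marker lower, against 0.937% of all genes. Among the lists with few genes, the adipocyte marker Fabp4 stood at 2.71, 4.27 and 2.45 CPM against 47.0, 78.1 and 26.6 CPM. DESeq2 called it higher (adjusted p = 2.9e-16), while edgeR did not (adjusted p = 0.29). The endothelial marker Eng had a log2 fold change of 1.06 with overlapping groups and was not called. The plasma and B cell marker Sdc1 (-0.26) and the 2 milk secretion markers lay below 0 and were not called. The part of the cell type markers in the folding genes' values was not tested.

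**Figure D5:**
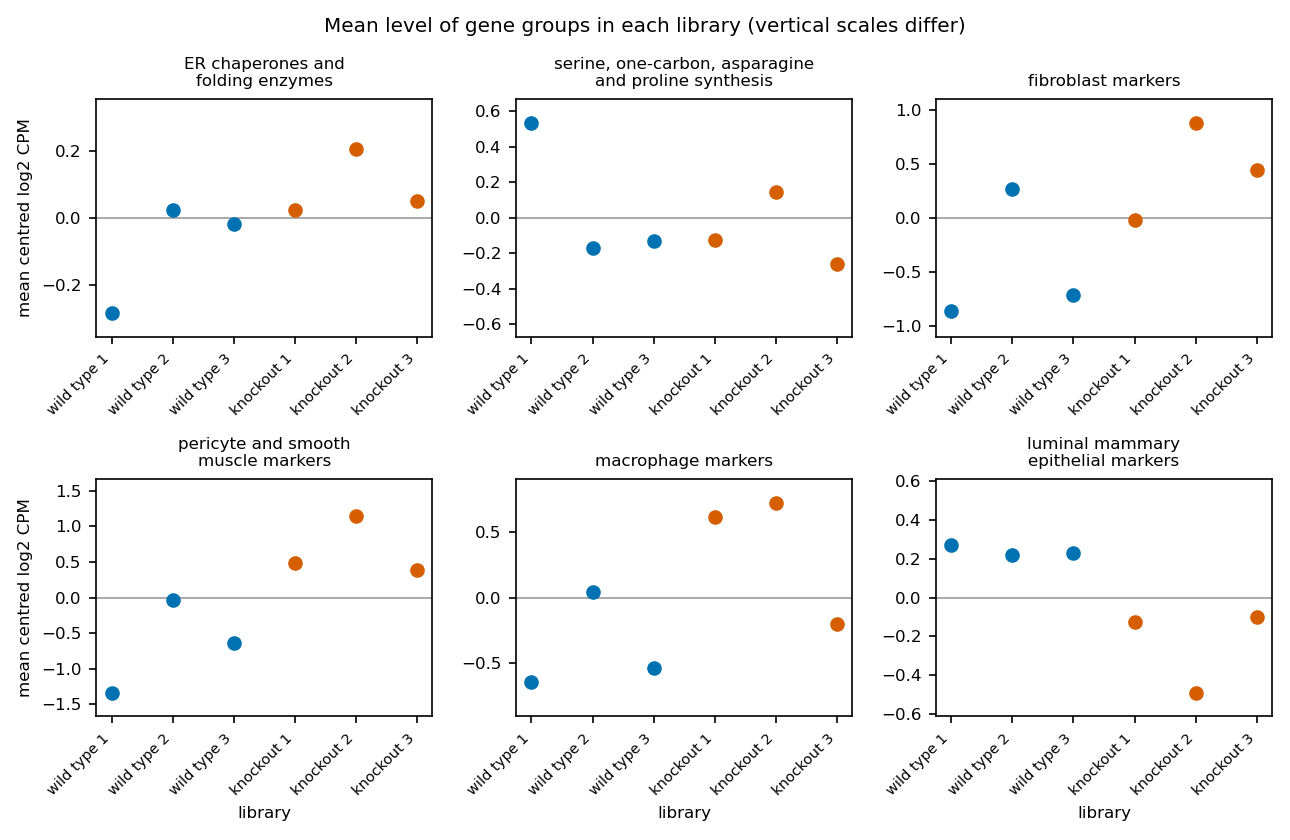
Mean of log2 CPM centred on each gene's mean, for the folding and synthesis roles and for 4 lists of cell type markers, in each of the 6 libraries, on vertical scales that differ between panels. The folding genes and the fibroblast, pericyte and macrophage markers are lowest in wild type replicate 1 and highest in knockout replicate 2. The luminal markers run the other way, and the synthesis enzymes are highest in wild type replicate 1.

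Beyond the members, 44 further genes of ER folding, translocation and degradation were listed, of which 38 had a fold change above 0, with a median of 0.10 and 0 that passed. Groups did not overlap for 8 of them, all higher with the knockout label (18.2%, against 8.39% of all genes). Those with an unadjusted p under 0.05 whose groups did not overlap were the translocon-associated subunits Ssr1 and Ssr3 and the HSP70 protein Hspa13. Ssr3 stood at 263, 344 and 332 CPM with the wild type label and at 381, 427 and 388 CPM with the knockout label, a log2 fold change of 0.35 (SE 0.12, edgeR adjusted p = 0.57). Ssr1 and Hspa13 had 0.28 (SE 0.09) each. Leaving out each library in turn left 34 to 37 of the 44 above 0, and Ssr3 was 0.24 without wild type replicate 1. A further list held kinases of eIF2, subunits of eIF2 and eIF2B, and other signalling genes, namely Ppp1r15b, Gcn1l1, Impact, Mbtps1, Mbtps2, Traf2 and Map3k5. Of its 18 listed genes, 12 lay above 0, with a median of 0.09 and 0 that passed.

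The further amino acid response genes went both ways. Of 35 listed, 13 lay above 0 and 22 below, with a median of -0.04. In edgeR 0 passed, while 4 higher and 4 lower genes had an unadjusted p under 0.05 (22.9%, against 7.88% of all genes), and DESeq2 called 1, against 0.937% of all genes. That gene was Slc7a11, the cystine transporter that supplies glutathione synthesis, at 7.37, 12.1 and 12.6 CPM with the wild type label and at 24.1, 21.7 and 18.1 CPM with the knockout label. All 3 libraries labelled knockout lay above all 3 labelled wild type, with a log2 fold change of 0.999 (SE 0.23, adjusted p = 0.57 in edgeR and 0.026 in DESeq2), and 0.79 with wild type replicate 1 left out. Aldh1l2, a mitochondrial folate enzyme, the neutral amino acid carrier Slc1a4 and the mitochondrial folate enzyme Mthfd1l had 0.55, 0.33 and 0.30, also with no overlap. Of the 31-base words of Aldh1l2, 17.1% are shared with other genes, among which D10Wsu102e on the opposite strand shares the most.

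In the other direction, Atf3, a stress-induced repressor of the same family as ATF4, stood at 26.3, 9.77 and 9.84 CPM with the wild type label and at 6.86, 7.21 and 6.41 CPM with the knockout label. The groups did not overlap, and the log2 fold change of -1.16 (SE 0.43, edgeR adjusted p = 0.57) was -0.52 without wild type replicate 1. Gpt2, a mitochondrial alanine transaminase, had -0.52 (SE 0.19), or -0.27 without that library. Mars, the methionyl-tRNA synthetase, stood at 126, 112 and 107 CPM against 97.6, 95.5 and 97.1 CPM, with a log2 fold change of -0.25 (SE 0.08) that was -0.18 without it.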

How the data were processed

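The authors deposited 1 table of raw counts per gene symbol, with a column per library and 10995 genes. Per the submitters' processing notes, CASAVA 1.8, HISAT2 and featureCounts were used with GRCm38 (mm10). The sources used here give no role for each tool, and neither the annotation nor the strand setting. Per the labels' protocols, libraries were made from column-purified RNA and read as 150-base pairs.

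Counts were fitted with edgeR 4.0.16 in R 4.3.3 (filterByExpr, which removed 0 genes, TMM scaling, robust quasi-likelihood F test, group as the only term), with Benjamini-Hochberg adjustment over all genes at 0.05. Log2 fold changes are the knockout label over the wild type label, the SE is the fold change over the root of F, and intervals are 95%. DESeq2 1.42.0 and limma-voom (limma 3.58.1) were alternatives, with other scalings and filters, the replicate number as a block, and each library left out. Library totals were 19569173 to 24188875, and no pair of libraries agreed within counting noise (smallest chi-square per degree of freedom 23.3). The fit was tested on simulated data with changes of 2-fold or more. Smaller changes, such as those of the members, were not simulated.

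The members and the gene lists were chosen with earlier results of these data known. Values in every library are given for Nr4a1, for members with an unadjusted p under 0.05 or whose groups did not overlap, for Hspa5, Xbp1, Atf4, Ddit3 and Asns, and for the 3 highest levels per length. Of each further list, up to 4 genes per direction with the smallest p under 0.05 and no overlap were named. Exon lengths, shared 31-base words (in Python 3.11.15) and overlaps came from GENCODE M21. Group levels used log2 CPM with a prior count of 2. Genes that the table does not list were not analysed.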

Additional observations from a re-analysis of the deposited data

How the results depend on the processing

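The edgeR call of 0 members held under every scaling, filter and test tried, with each library left out and at an adjusted p of 0.1. DESeq2 called 103 genes over the whole table, and edgeR called 0 to 2 with each library left out, 2 of them without wild type replicate 2. Members at an unadjusted p under 0.05 numbered 0 (without knockout replicate 2 or 3) to 3 (without wild type replicate 2 or knockout replicate 1), while such genes in the whole table ranged from 388 (without knockout replicate 2) to 1365 (without wild type replicate 2). Chac1 was the member with the fewest counts, 130 to 364 per library, so counting error was largest there.

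Whether the numbers of the replicates pair the libraries is not settled. The deviations of same-numbered libraries from their group means correlated at -0.11, 0.35 and -0.25. Such deviations sum to 0 within each group of 3, so these correlations cannot decide it. With the replicate block, 0 genes and 0 members were called, 862 genes against 866 had an unadjusted p under 0.05, Herpud1 no longer among them, the median of the members was -0.0066, and Ddit3 and Ppp1r15a turned to -0.051 and -0.016. Wild type replicates 1, 2 and 3 correlated best with knockout replicates 3, 2 and 1. With limma-voom those 2 genes stood at -0.032 and -0.0033. Scaling by library size gave 0.020 for Aldh18a1, 0.010 for Sel1l and 0.021 for Shmt2, and 4 members without overlap in place of 5. A minimum mean of 10 CPM gave 0.0020 for Aldh18a1 and 0.0026 for Shmt2, and, with Chac1 removed, 0.015 for the median of the feedback outputs.

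Leaving out each library in turn gave 7 to 10 members without overlap, where 18.9% to 27% of members compared with 23.3% to 34.7% of all genes, and 17 to 28 members above 0, with 28 without wild type replicate 1. The median of the members ranged from -0.014 to 0.071. By role it ranged from -0.24 to -0.014 for the sensors, from -0.28 (without knockout replicate 3) to 0.031 for the regulators, from 0.11 to 0.26 for folding, from -0.029 to 0.043 for degradation, from -0.28 to 0.078 for synthesis and from -0.17 to 0.038 (without knockout replicate 3) for feedback. Single members that turned their direction ranged from -0.060 to 0.058 for Aldh18a1, -0.29 to 0.13 for Asns, -0.13 to 0.084 for Atf4, -0.66 to 0.013 for Atf5, -0.030 to 0.12 for Atf6, -0.022 to 0.17 for Calr, -0.72 to 0.083 for Chac1, -0.27 to 0.21 for Ddit3, -0.10 to 0.36 for Ddit4, -0.034 to 0.090 for Edem1, -0.41 to 0.043 for Mthfd2, -0.91 to 0.13 for Phgdh, -0.12 to 0.19 for Ppp1r15a, -0.43 to 0.030 for Psat1, -0.031 to 0.0037 for Sel1l, -0.13 to 0.11 for Shmt2 and -0.28 to 0.34 for Xbp1. Counts above 0 by role, and values of genes outside the members, were added to these alternatives after seeing the data. Except where fewer genes or samples entered by construction, the cause was not tested.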
